A study of Mus musculus with 9 samples.

Results

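Cadherins are calcium-dependent adhesion molecules that join a cell to its neighbours. The 10 genes described here, Cdh1, Cdh2, Cdh3, Cdh4, Cdh5, Cdh6, Cdh10, Cdh11, Cdh13 and Cdh19, were taken by name from 19938 genes measured in 9 preparations of neonatal mouse back skin cells. Each of the 10 had 1 probe set that the platform annotation gives to that gene alone, and all 10 were tested. The 4 SKP arrays (replicates 3, 4, 5 and 6) hold skin-derived precursor cells, which were grown from dissociated skin of mice at postnatal day 4 and harvested as spherical colonies at primary passage. The 5 sorted arrays (replicates 2, 16, 17, 18 and 20) hold cells of Sox2:EGFP mice of the same age, taken by flow cytometry as EGFP-positive and CD34-negative and never cultured. The labels give no strain or reporter for the mice behind the SKPs. Culture, sorting and the reporter all separate the groups and cannot be told apart.

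The extracellular part of a classical cadherin binds cadherins on the next cell, and its cytoplasmic tail binds p120-catenin and beta-catenin, which links through alpha-catenin to actin. Type I members (here Cdh1, Cdh2, Cdh3 and Cdh4) and type II members (Cdh5, Cdh6, Cdh10, Cdh11 and Cdh19) share this layout, while Cdh13, T-cadherin, lacks the tail, is held in the membrane by a lipid anchor, and so falls outside the strict definition of a classical cadherin. In skin, keratinocytes carry E-cadherin (Cdh1) and P-cadherin (Cdh3), dermal mesenchyme carries N-cadherin (Cdh2) and cadherin-11 (Cdh11), Schwann cell precursors carry Cdh19, and vessel endothelium carries VE-cadherin (Cdh5).

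Of the 10 cadherins, 5 were lower in SKPs (Cdh1, Cdh19, Cdh3, Cdh6 and Cdh2) and 1 was higher (Cdh10), as judged by limma with p-values adjusted by Benjamini-Hochberg over the whole table and a limit of 0.05. Among all 19938 genes the same test called 16.9% lower and 20.2% higher, or 37.0% in either direction. These shares are the background for every list count below that uses all 9 arrays. The median log2 fold change, SKP minus sorted, was -0.70 over the 10 members and 0.07 over all genes. Cdh1 was 9.50-fold, Cdh19 8.30-fold, Cdh3 4.06-fold and Cdh6 2.34-fold lower. These were the members lower by at least 2-fold, 4 of 10, where 6.25% of all genes were. At that limit 0 of 10 were higher, as 5.46% of all genes were, and Cdh10, the member called higher, had an adjusted p of 0.0443 without the limit. Cdh11, Cdh4, Cdh5 and Cdh13 did not pass the test. In 5 members, the same 5 that were lower, every SKP array lay below every sorted array, and 34.0% of all genes had groups that did not overlap (15.5% with SKPs below).

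The sorted arrays were not uniform. Cd34, selected against in the sort, was at 11.14 to 11.62 on the SKP arrays, on the log2 scale of the deposited levels. In the sorted group it was at 10.19 (replicate 2) and 10.27 (replicate 20), whereas replicates 16, 17 and 18 had 7.31 to 7.82. Sox2, the gene behind the sorted reporter, was at 5.78 to 6.41 in SKPs and 8.24 to 9.25 in the sorted cells. Of the 10 cadherins, 3 were higher by over 0.1 on both sorted replicates 2 and 20 than on any of the other 3 (Cdh2, Cdh5 and Cdh13), and 2 were lower on both by that margin (Cdh6 and Cdh11). Results are therefore given with and without these 2 arrays. Both were set apart with earlier results of these data known, so p-values from the fit without them are descriptive only. Without the 2 arrays 6 members were lower (Cdh11 in addition) and 1 was higher (Cdh5 in place of Cdh10), and the call rates over all genes were 21.1% lower and 25.4% higher, or 46.5% in either direction. As a measure of low signal, 1015 olfactory receptor genes had a 95th percentile of 5.96 to 6.27 across the arrays. All 10 members exceeded that percentile on at least 4 of the 5 sorted arrays, and 9 of 10 did so on all SKP arrays. Cdh19 did so on 2 of the 4 SKP arrays.

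**Figure D1:**
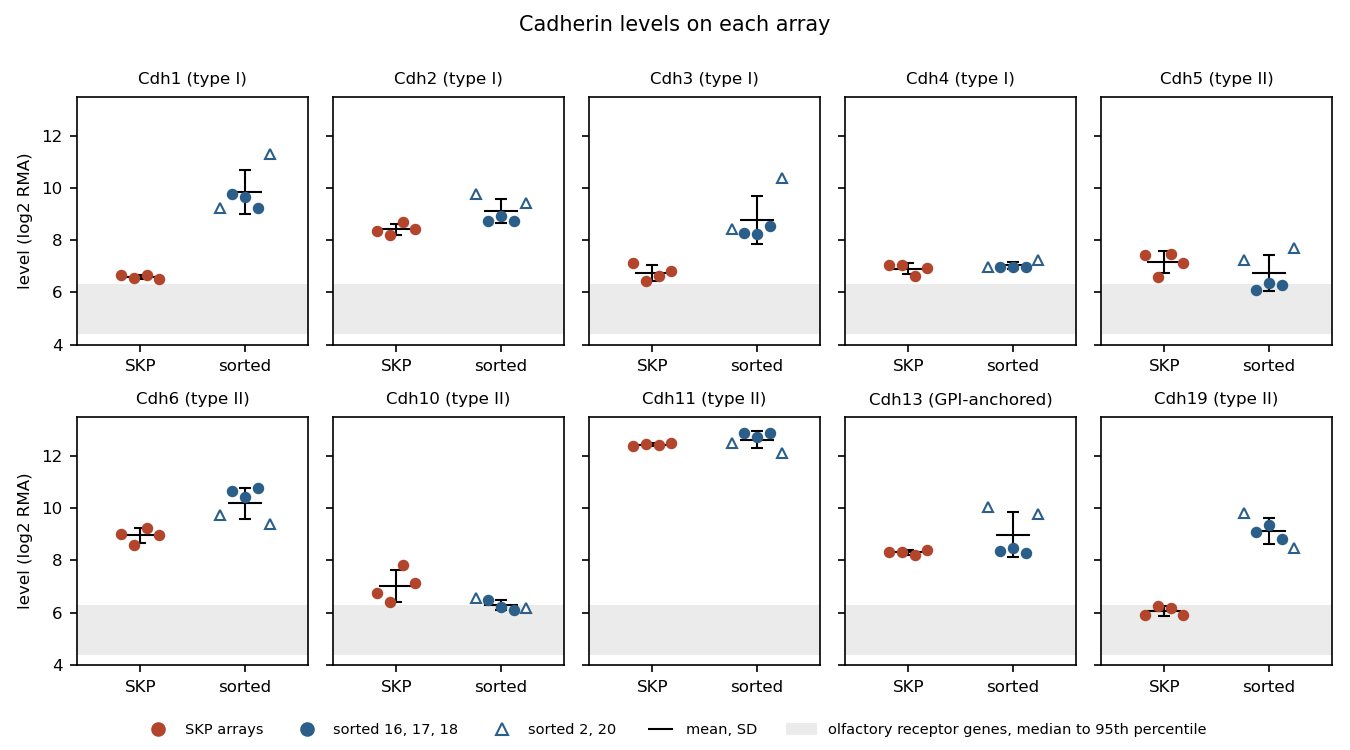
Log2 RMA level of each cadherin (vertical axis) on each array, SKP left and sorted right in every panel. Filled circles are SKP arrays and sorted replicates 16, 17 and 18, open triangles are sorted replicates 2 and 20, bars are the mean and SD, and the grey band runs from the median to the 95th percentile of olfactory receptor genes. Cdh1, Cdh3 and Cdh19 show wide gaps between the groups, and in Cdh13 the triangles stand well above all other points.

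E-cadherin, the main adhesion molecule of epithelial junctions, was a little above the olfactory receptor percentile in SKPs and well above it in the sorted cells. Cdh1 was at 6.67, 6.56, 6.65 and 6.51 on SKP replicates 3, 4, 5 and 6, against 9.25, 9.75, 9.66, 9.25 and 11.31 on sorted replicates 2, 16, 17, 18 and 20. The SKP arrays lay within 0.16 of one another, the groups were separated by 2.58, and sorted replicate 20 was the highest array. The log2 fold change was -3.25 ± 0.37 (SE; 4 SKP and 5 sorted arrays; limma adjusted p = 8.21e-05), with a 95% confidence interval of -4.07 to -2.42. Without sorted replicates 2 and 20 it was -2.96 (adjusted p = 3.53e-07).

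P-cadherin, which in skin is found in basal keratinocytes and in the growing hair follicle, followed Cdh1 in direction. Cdh3 was at 7.11, 6.43, 6.61 and 6.83 on SKP replicates 3, 4, 5 and 6, against 8.43, 8.26, 8.23, 8.54 and 10.38 on sorted replicates 2, 16, 17, 18 and 20. The lowest sorted array was 1.11 above the highest SKP array, and sorted replicate 20 again stood highest. It differed by a log2 fold change of -2.02 ± 0.41 (SE; limma adjusted p = 0.00305), and -1.60 without sorted replicates 2 and 20 (adjusted p = 5.16e-05), a change in fold size to 3.03 in place of 4.06. Cdh1 and Cdh3 are next to each other among the coding genes of the RefSeq annotation of GRCm38.p6. So are Cdh11 and Cdh5, whose log2 fold changes of -0.19 and 0.43 differed in sign and did not pass the test.

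Keratinocyte markers went in the same direction as both genes. Of 19 measured markers in a keratinocyte list, 17 were lower in SKPs and 0 higher, with a median log2 fold change of -2.73, led by the desmosome genes Dsc3 (29.0-fold lower) and Dsp (27.8-fold lower). The list mean was 6.60 to 6.89 on the SKP arrays, against 9.57 on sorted replicate 2, 10.77 on sorted replicate 20 and 9.10 to 9.26 on the other 3. On sorted replicate 2 the list was above those 3, whereas Cdh1 (9.25) and Cdh3 (8.43) were not above all of them. Krt1, Dsc3 and Lor stayed under the olfactory receptor percentile on every SKP array, and no marker did so on all sorted arrays. The part of epithelial cells in the Cdh1 and Cdh3 differences was not tested. In bulk RNA, fewer cells of a type and less RNA per cell cannot be told apart.

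N-cadherin, which many mesenchymal and neural cells carry in place of E-cadherin, showed a small difference in the same direction. Cdh2 was at 8.35, 8.19, 8.69 and 8.44 on SKP replicates 3, 4, 5 and 6, against 9.77, 8.75, 8.94, 8.75 and 9.44 on sorted replicates 2, 16, 17, 18 and 20. The groups did not overlap, although only 0.06 parted SKP replicate 5 from the lowest sorted array. This gave a log2 fold change of -0.71 ± 0.22 (SE; limma adjusted p = 0.0264), or 1.64-fold lower in SKPs. Without sorted replicates 2 and 20 it was -0.40 (adjusted p = 0.0237). The call was lost on leaving out SKP replicate 3 (adjusted p = 0.0672), SKP replicate 4 (0.0759) or SKP replicate 6 (0.0594), within a range of 0.0104 to 0.0759 over the alternatives.

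R-cadherin, best known from retina and brain, had similar levels in both groups. Cdh4 was at 7.04, 7.06, 6.62 and 6.92 on SKP replicates 3, 4, 5 and 6, against 6.99, 6.97, 6.99, 6.97 and 7.24 on sorted replicates 2, 16, 17, 18 and 20. The arrays overlapped, and the log2 fold change of -0.12 (limma adjusted p = 0.419) had a 95% confidence interval of -0.36 to 0.12, which lies within a 2-fold difference in either direction.

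Among the type II genes, Cdh19, a cadherin of Schwann cell precursors, had the largest difference. Cdh19 was at 5.90, 6.27, 6.16 and 5.90 on SKP replicates 3, 4, 5 and 6, against 9.81, 9.10, 9.35, 8.82 and 8.49 on sorted replicates 2, 16, 17, 18 and 20. All sorted arrays lay at least 2.22 above the highest SKP array. The SKP values were near the 95th percentile of olfactory receptor genes, so the fold is approximate. The difference was a log2 fold change of -3.05 ± 0.23 (SE; limma adjusted p = 6.01e-06), and -3.03 without sorted replicates 2 and 20 (adjusted p = 7.28e-07).

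Glial and melanocyte markers were, like Cdh19, mostly lower in SKPs. Of 12 measured Schwann cell markers, 11 were lower in SKPs and 1 was higher, with a median log2 fold change of -1.67, led by the neuregulin receptor gene Erbb3 (18.2-fold lower) and Gldn (11.9-fold lower, or 22.5-fold without sorted replicates 2 and 20). The higher one was Egr2, whose call was lost without SKP replicate 3, 4 or 6 or sorted replicate 16, 17 or 18 (adjusted p up to 0.0864). The list mean was 7.13 to 7.49 on the SKP arrays and 8.96 to 9.52 on the sorted arrays, with Cdh19 and the list both highest on sorted replicate 2. Their lowest sorted arrays differed, replicate 20 for Cdh19 (8.49) and replicate 18 for the list (8.96). Fabp7 alone of these markers stayed under the olfactory receptor percentile on every SKP array. Of 12 melanocyte markers 9 were lower and 1, Mitf, was higher. Their mean was 6.69 to 6.90 on the SKP arrays, against 8.53 on sorted replicate 20 and at most 8.18 on the other sorted arrays. Replicate 20, where this list was highest, was the sorted array with the lowest Cdh19. Ednrb (14.4-fold lower in SKPs) and Tyrp1 (9.50-fold lower), of the melanocyte lineage, had the largest differences in the melanocyte list. Tyr and Gpr143 stayed under the percentile on every SKP array, and Gpr143 on every sorted array. The part of glial or pigment cells in the Cdh19 difference was not tested.

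Cadherin-6, known in embryonic neural crest and kidney, differed less but also separated the groups. Cdh6 was at 9.02, 8.58, 9.26 and 8.97 on SKP replicates 3, 4, 5 and 6, against 9.72, 10.64, 10.41, 10.77 and 9.38 on sorted replicates 2, 16, 17, 18 and 20. Sorted replicates 2 and 20 were the lowest sorted arrays, and replicate 20 was only 0.11 above the highest SKP array. The log2 fold change was -1.22 ± 0.28 (SE; limma adjusted p = 0.00672), or 2.34-fold lower in SKPs. Without those 2 arrays Cdh6 was 3.13-fold lower (log2 fold change -1.65, adjusted p = 3.83e-05).

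Cadherin-11 is a cadherin of mesenchyme, prominent in bone-forming cells and fibroblasts. Cdh11 was at 12.37, 12.44, 12.40 and 12.49 on SKP replicates 3, 4, 5 and 6, against 12.50, 12.88, 12.72, 12.87 and 12.10 on sorted replicates 2, 16, 17, 18 and 20. Both groups were near the top of the scale and overlapped, with a log2 fold change of -0.19 (limma adjusted p = 0.371) and a 95% confidence interval of -0.53 to 0.15. Leaving out sorted replicate 20 gave -0.32 (adjusted p = 0.0259), and leaving out replicates 2 and 20 gave -0.40 (adjusted p = 0.00176), both past the threshold. These are the sorted arrays with the lowest Cdh11, so leaving them out widens the difference by construction.

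Within the sorted arrays Cdh6, Cdh11 and a dermal papilla list were all lowest on replicate 20 and next lowest on replicate 2. The list mean was 6.90 to 7.06 on the SKP arrays, against 10.43 on sorted replicate 2, 9.86 on replicate 20 and 11.68 to 11.84 on the others. Like the list, Cdh6 was lower on every SKP array than on any sorted array. Cdh11 was not: it lay at 12.37 to 12.49 in SKPs, above sorted replicate 20 (12.10). Of its 18 genes 17 were lower in SKPs and 1, Crabp1, was higher, with a median log2 fold change of -4.67, led by Lepr (84.7-fold lower) and Wif1 (64.7-fold lower). Without sorted replicates 2 and 20 these folds were 157 for Lepr, 102 for Wif1 and 3.09, in place of 6.21, for Crabp1. Lepr, Rspo2, Hey2 and Ntng1 stayed under the olfactory receptor percentile on every SKP array. A hair matrix list was also lower on both of these sorted arrays than on the other 3. Its mean was 6.14 to 6.54 on the SKP arrays, against 7.63 on sorted replicate 2, 7.65 on replicate 20 and 9.78 to 10.02 on the others. The part of papilla or matrix cells in the Cdh6 and Cdh11 values was not tested.

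VE-cadherin, the adhesion molecule of endothelial junctions, was split within the sorted group. Cdh5 was at 7.44, 6.60, 7.48 and 7.14 on SKP replicates 3, 4, 5 and 6, against 7.26, 6.09, 6.37, 6.27 and 7.69 on sorted replicates 2, 16, 17, 18 and 20. Sorted replicates 2 and 20 lay among or above the SKP arrays and the other 3 below all of them. The log2 fold change was 0.43 (95% confidence interval -0.33 to 1.18; limma adjusted p = 0.361) with all arrays. Without sorted replicates 2 and 20 it was 0.92, or 1.89-fold higher in SKPs (adjusted p = 0.00512). Leaving out the 2 sorted arrays with the highest Cdh5 raises this difference by construction, so that p-value is descriptive only. The other 3 sorted arrays were near the olfactory receptor percentile (6.15, 6.11 and 6.25 on replicates 16, 17 and 18), so the fold is approximate.

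Within the sorted arrays, endothelial markers followed the same split. The mean of 15 endothelial markers was 6.56 to 6.82 on the SKP arrays, against 7.04 on sorted replicate 2, 7.41 on replicate 20 and 6.47 to 6.57 on the others. On every SKP array this mean was below both replicates 2 and 20, whereas Cdh5 reached 7.48 on SKP replicate 5, above sorted replicate 2 (7.26). With all arrays 0 of the 15 were higher by limma (1 at an unadjusted p under 0.05) and 2 lower in SKPs (Kdr, the VEGF receptor, 2.11-fold and Erg 1.46-fold), and without replicates 2 and 20 there were 5 higher (Emcn, Flt1, Egfl7, Cd93 and Sox17) and 2 lower. Kdr lost its call without any 1 SKP array or without sorted replicate 2 or 16 (adjusted p up to 0.126), and Erg without any 1 SKP array or sorted replicate 20 (up to 0.0848). Leaving out sorted replicate 20 alone gave 3 higher. Sox17 stayed under the olfactory receptor percentile on every array. Emcn was under it on 3 of 4 SKP and 4 of 5 sorted arrays, and Cd93 on 3 of 5 sorted arrays. The part of endothelial cells in the Cdh5 values was not tested.

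Cadherin-10, a type II cadherin known mainly from brain, was the only member called higher in SKPs with all arrays. Cdh10 was at 6.74, 6.41, 7.84 and 7.14 on SKP replicates 3, 4, 5 and 6, against 6.56, 6.47, 6.23, 6.12 and 6.16 on sorted replicates 2, 16, 17, 18 and 20. The groups overlapped, because SKP replicate 4 lay below 2 of the sorted arrays. The sorted values were near the 95th percentile of olfactory receptor genes, above it on 4 of the 5 arrays. Its log2 fold change was 0.72 ± 0.25 (SE; limma adjusted p = 0.0443), or 1.65-fold higher. The call was lost in 8 of 17 alternatives: without SKP replicate 3, 5 or 6, without sorted replicate 16, 17, 18 or 20, and without sorted replicates 2 and 20 together (0.76, adjusted p = 0.0658). Leaving out SKP replicate 5 gave 0.45 (adjusted p = 0.0754), with adjusted p between 0.00795 and 0.107 over the alternatives.

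The order of Cdh10 on the SKP arrays was that of myeloid cell genes. The mean of 14 myeloid markers was 7.42, 6.89, 8.44 and 7.79 on SKP replicates 3, 4, 5 and 6, against 6.19, 6.06, 6.07, 6.08 and 5.89 on sorted replicates 2, 16, 17, 18 and 20. SKP replicate 5 was highest and SKP replicate 4 lowest in both. Of the 14 markers 12 were higher in SKPs and 0 lower, led by lysozyme gene Lyz2 (24.3-fold) and complement gene C1qc (4.23-fold), which were under the olfactory receptor percentile on 3 (Lyz2) and 4 (C1qc) of the 5 sorted arrays. Ptprc, Itgam, Adgre1 and Aif1 stayed under the olfactory receptor percentile on every sorted array, and no marker did so on every SKP array. The part of myeloid cells in the Cdh10 difference was not tested.

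**Figure D2:**
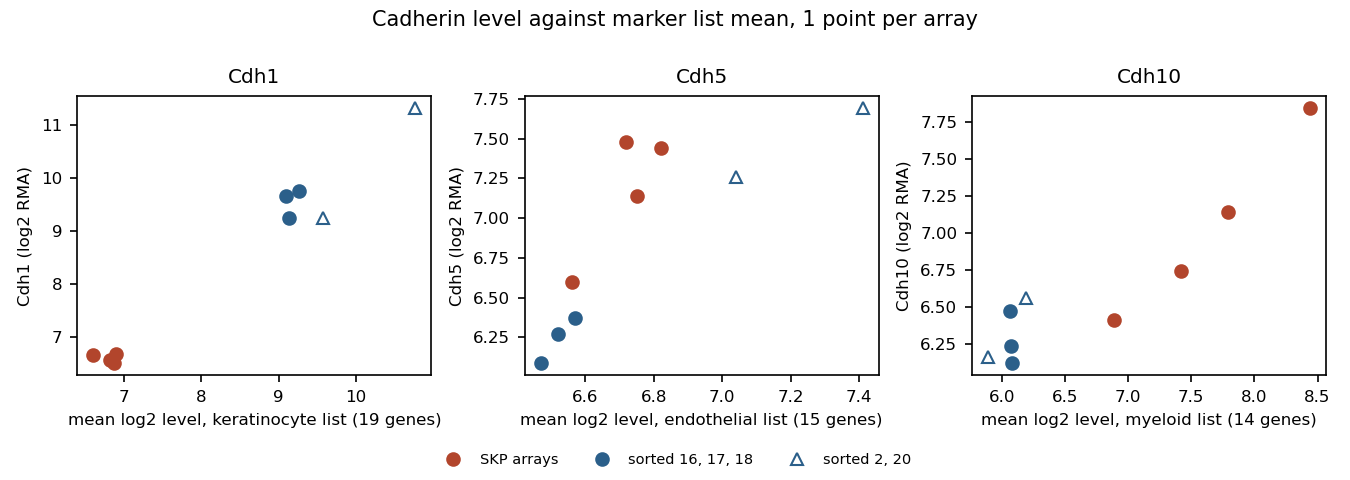
Level of Cdh1, Cdh5 and Cdh10 (vertical axes, log2 RMA) against the mean log2 level of keratinocyte, endothelial and myeloid markers (horizontal axes), with 1 point per array. Cdh1 has the SKP and sorted arrays in separate clusters with sorted replicate 20 at the top right, Cdh5 has sorted replicates 2 and 20 (open triangles) away from the other sorted arrays, and Cdh10 has SKP replicate 5 at the top right.

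The RefSeq promoter table for GRCm38.p6 held windows for 2 of the 10 members, Cdh6 and Cdh10, which were called in opposite directions. They are shown so that the start regions of these members can be compared, each running from 250 bases before to 50 bases after the gene's start, read 5′ to 3′ on the gene's strand. The Cdh6 window is chr15:13173626-13173925 on the minus strand and the Cdh10 window chr15:18820079-18820378 on the plus strand. Capitals mark the E-box letters CANNTG, which read the same on both strands and are the kind of site that Snail, Zeb and Twist factors bind.
Cdh6: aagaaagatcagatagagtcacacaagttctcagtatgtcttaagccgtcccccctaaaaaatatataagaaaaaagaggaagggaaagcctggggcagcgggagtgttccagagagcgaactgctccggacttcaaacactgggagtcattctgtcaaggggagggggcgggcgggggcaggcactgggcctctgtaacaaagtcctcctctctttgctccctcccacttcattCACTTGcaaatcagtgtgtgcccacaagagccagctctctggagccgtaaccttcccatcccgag
Cdh10: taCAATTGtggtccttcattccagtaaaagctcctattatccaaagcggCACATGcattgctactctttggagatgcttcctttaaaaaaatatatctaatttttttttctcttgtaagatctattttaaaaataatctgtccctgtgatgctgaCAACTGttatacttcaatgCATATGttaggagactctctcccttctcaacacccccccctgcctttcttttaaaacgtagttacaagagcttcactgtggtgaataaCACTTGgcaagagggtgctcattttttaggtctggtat
Cdh6 held 1 such match and Cdh10 held 5. Of 32851 windows of 300 bases in the table, 72.3% held at least 1 and 2.10% held at least 5. The forms CACCTG and CAGGTG, which are included in CANNTG and are each other's reverse complement, matched in neither window and in 20.2% of all windows. A match describes letters only, and no binding was measured.

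T-cadherin, which binds adiponectin and is found on vascular and muscle cells, stood higher on 2 sorted arrays than on all others. Cdh13 was at 8.31, 8.32, 8.20 and 8.41 on SKP replicates 3, 4, 5 and 6, against 10.05, 8.35, 8.48, 8.29 and 9.77 on sorted replicates 2, 16, 17, 18 and 20. With all arrays the log2 fold change was -0.68 (95% confidence interval -1.50 to 0.14; limma adjusted p = 0.182). Without sorted replicates 2 and 20 it was -0.07 (adjusted p = 0.548).

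Within the sorted arrays, Cd34 and a fibroblast list shared this split. The mean of 15 fibroblast markers, Cd34 among them, was 11.26 to 11.36 on the SKP arrays, against 11.06 on sorted replicate 2, 11.25 on replicate 20 and 9.80 to 9.90 on the others. Of the 15, 9 were higher in SKPs and 1 lower, led by the proteoglycan gene Lum (20.1-fold higher) and Dpp4 (7.98-fold lower). For Lum the fold was 39.0 without sorted replicates 2 and 20. Without sorted replicate 20, 2 of them were lower, Pdgfra in addition, and without both replicates 12 were higher and 2 lower. On the SKP arrays this list was as high as on sorted replicates 2 and 20, while Cdh13 was not: it lay at 8.20 to 8.41 in SKPs, against 9.77 and 10.05 on those 2 arrays. Dpp4 stayed under the olfactory receptor percentile on every SKP array. The endothelial list mean was, like Cdh13, higher on sorted replicates 2 (7.04) and 20 (7.41) than on every other array. Keratinocyte and melanocyte list means were too, but those were lower on every SKP array than on any sorted array. The part of endothelial or other dermal cells in the Cdh13 values was not tested.

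**Figure D3:**
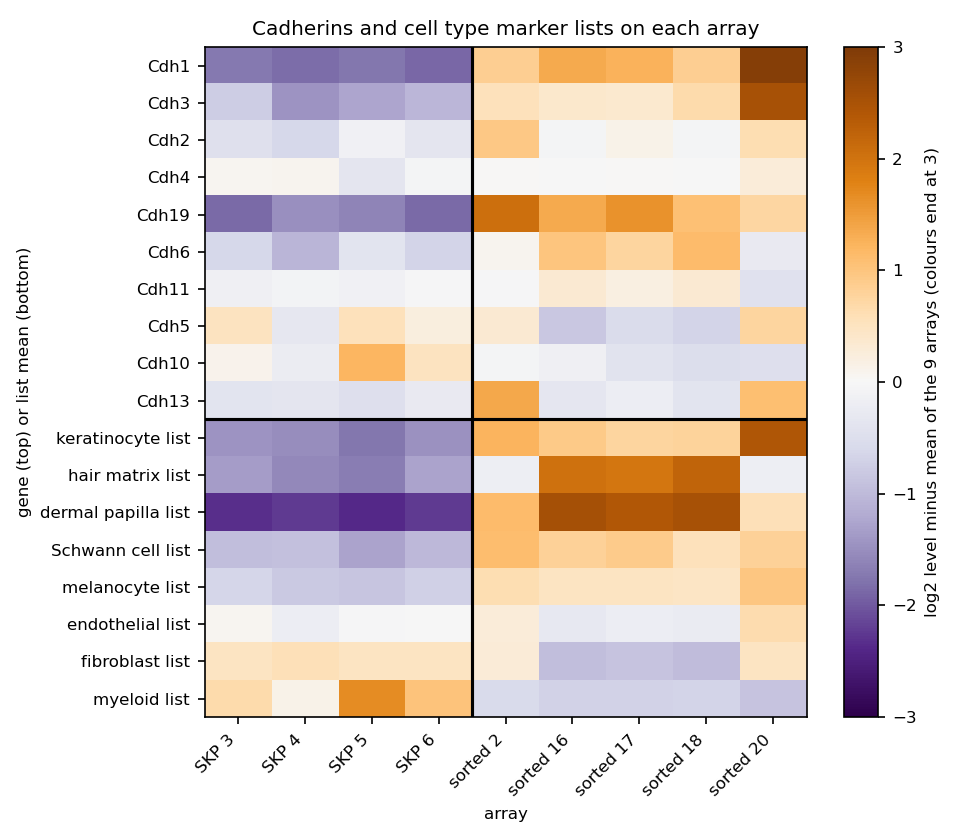
Level of each cadherin (top rows) and mean of each marker list (bottom rows) on each array (columns, SKP left), as log2 level minus the row's mean over the 9 arrays. Brown is above and purple below that mean. Cdh1 and Cdh3 are darkest brown on sorted replicate 20, as is the keratinocyte list, and Cdh13 is brown on sorted replicates 2 and 20 alone.

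**Figure D4:**
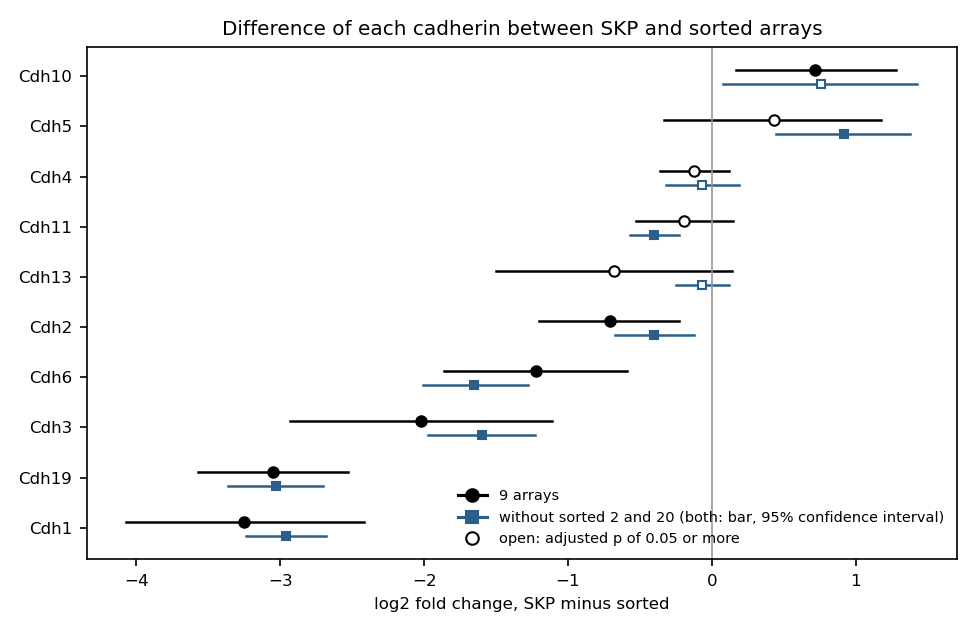
Log2 fold change of each cadherin, SKP minus sorted, with its 95% confidence interval, over all 9 arrays (black circles) and without sorted replicates 2 and 20 (blue squares). Filled symbols have an adjusted p under 0.05. Cdh1 and Cdh19 lie near -3 in both settings, and Cdh5, Cdh10 and Cdh11 are filled in 1 setting only.

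The genes whose profiles lay nearest to each called member were found by the mean absolute difference over the 9 arrays, after each gene's own mean was removed. Cdh1 was nearest to Fam83b (0.13 on the log2 scale) and Lgals7, a keratinocyte galectin gene (0.18). Cdh3 was nearest to Hook1 (0.17) and Ankrd22 (0.18). Cdh19 was nearest to Art3 (0.14) and Afap1l2 (0.15), and Cdh6 to the adhesion molecule gene Sdk2 (0.11) and the calcium channel gene Cacna1a (0.13). Cdh2 was nearest to Kctd9 (0.08) and Tenm3, a teneurin gene (0.08). Cdh10 was nearest to Cd180 (0.09) and Csf1r (0.10), the gene of the macrophage growth factor receptor and a member of the myeloid list.

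Catenins and other proteins of the junction plaque were mostly lower in SKPs. Of 25 measured genes 16 were lower and 4 higher, where 16.9% of all genes were lower and 20.2% higher. The median log2 fold change was -0.60, against 0.07 over all genes. Ctnnal1, a relative of alpha-catenin, was 12.1-fold lower (limma adjusted p = 3.47e-06), plakoglobin (Jup), which also serves desmosomes, 7.09-fold lower (adjusted p = 5.71e-06) and Camsap3, which anchors microtubules at junctions, 3.31-fold lower (adjusted p = 2.92e-05). The 3 largest increases were in the actin-associated genes Lima1 (1.66-fold), Pdlim5 (1.41-fold) and Zyx (1.32-fold). The other gene higher was Actn1, named after its value was seen. Of the 25 genes, 6 were lower by at least 2-fold and 0 higher by limma with that limit, where 6.25% and 5.46% of all genes were.

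The core catenins and vinculin, chosen here for their role after their values were seen, are given singly and not as a count. Beta-catenin (Ctnnb1) was at 11.57 to 11.72 in SKPs, against 11.54 to 12.11 in the sorted cells, with a log2 fold change of -0.09 (limma adjusted p = 0.589). Alpha-catenin (Ctnna1) was lower by a log2 fold change of -0.37 (adjusted p = 0.0208, but 0.0501 without SKP replicate 4 and 0.0599 without SKP replicate 6), p120-catenin (Ctnnd1) by -0.57 (adjusted p = 2.59e-04) and vinculin (Vcl), which binds alpha-catenin under tension, by -0.92 (adjusted p = 2.13e-05).

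Nectins, immunoglobulin-like adhesion molecules that join cadherins at junctions, were lower in 3 of 5 measured genes. Nectin4 was 2.55-fold, Nectin1 2.00-fold and Nectin3 1.51-fold lower, whereas the related poliovirus receptor gene Pvr was 2.72-fold higher.

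Most other cadherins of types I and II were dim. Of 9 measured genes 2 were lower, Cdh22 (1.72-fold) and Cdh18 (1.59-fold), and 0 higher by limma, a count that was 0 on leaving out any 1 SKP array or sorted replicate 16, 17 or 18, and 4 without sorted replicates 2 and 20. Cdh7, Cdh8, Cdh9, Cdh12 and Cdh20 stayed under the olfactory receptor percentile on all 9 arrays. In the wider superfamily, 10 of 32 measured genes were lower and 3 higher, with a median log2 fold change of -0.02. Over all genes 16.9% were lower and 20.2% higher. Celsr2, an atypical cadherin of planar cell polarity, was 3.93-fold lower (limma adjusted p = 3.13e-06), the protocadherin gene Pcdh20 2.91-fold and the calsyntenin gene Clstn2 2.89-fold lower. Pcdh7 (2.00-fold), Dchs1 (1.61-fold) and Pcdh19 (1.39-fold) were higher. Of these, Dchs1 lost its call without any 1 SKP array or sorted replicate 2 (adjusted p up to 0.0853) and Pcdh19 without SKP replicate 4, 5 or 6 or sorted replicate 16, 17 or 18 (up to 0.0814), and the number higher was 1 without SKP replicate 4 or 6 and ranged from 1 to 7 over 19 alternatives, 7 being with array weights.

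Transcription factors that repress Cdh1 during epithelial-mesenchymal transition were called about as often as genes in general. Of 12 measured genes of that list 3 were higher in SKPs and 2 lower, against 20.2% higher and 16.9% lower over all genes, and their median log2 fold change was 0.05, against 0.07 over all genes. Zeb1 was at 10.20 to 10.82 in SKPs, against 8.29 to 9.19 in the sorted cells, and was 3.54-fold higher (limma adjusted p = 5.40e-05). Its paralogue Zeb2 was at 9.71 to 9.88 in SKPs, against 10.83 to 11.82 in the sorted cells, and was 3.33-fold lower (adjusted p = 7.13e-05). Tcf4 (2.61-fold) and Twist2 (2.51-fold) were higher and Klf8, under the olfactory receptor percentile on 3 of 4 SKP arrays, was 2.05-fold lower.

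Factors that maintain epithelial expression were lower in 9 of 14 measured genes and higher in 1. Esrp1, a splicing regulator of epithelial cells, was 13.9-fold lower, Grhl1 6.42-fold (under the olfactory receptor percentile on 3 of 4 SKP arrays) and Klf4 4.37-fold. Foxa1, the higher gene, was at 5.98 to 6.46 in SKPs, against 5.76 to 6.02 in the sorted cells. Both groups were near the olfactory receptor percentile, so no difference is claimed for it. Grhl2, Ovol1, Esrp1, Elf3, Elf5 and Cdx2 stayed under the olfactory receptor percentile on every SKP array.

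Of 15 measured genes for enzymes that mature or cut cadherins, 4 were higher and 3 lower in SKPs, near the 20.2% higher and 16.9% lower over all genes. The matrix metalloproteinases Mmp3 (282-fold) and Mmp9 (60.8-fold) and the sheddase gene Adam17 (2.31-fold) were higher, as was Ncstn, a gamma-secretase subunit gene named after its value was seen. The folds of Mmp3 and Mmp9 are approximate, since Mmp9 stayed under the olfactory receptor percentile on all 5 sorted arrays and Mmp3 on 4 of the 5. The proprotein convertase genes Pcsk6 (2.98-fold) and Furin (1.49-fold) and the gamma-secretase subunit gene Aph1b (1.94-fold) were lower.

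**Figure D5:**
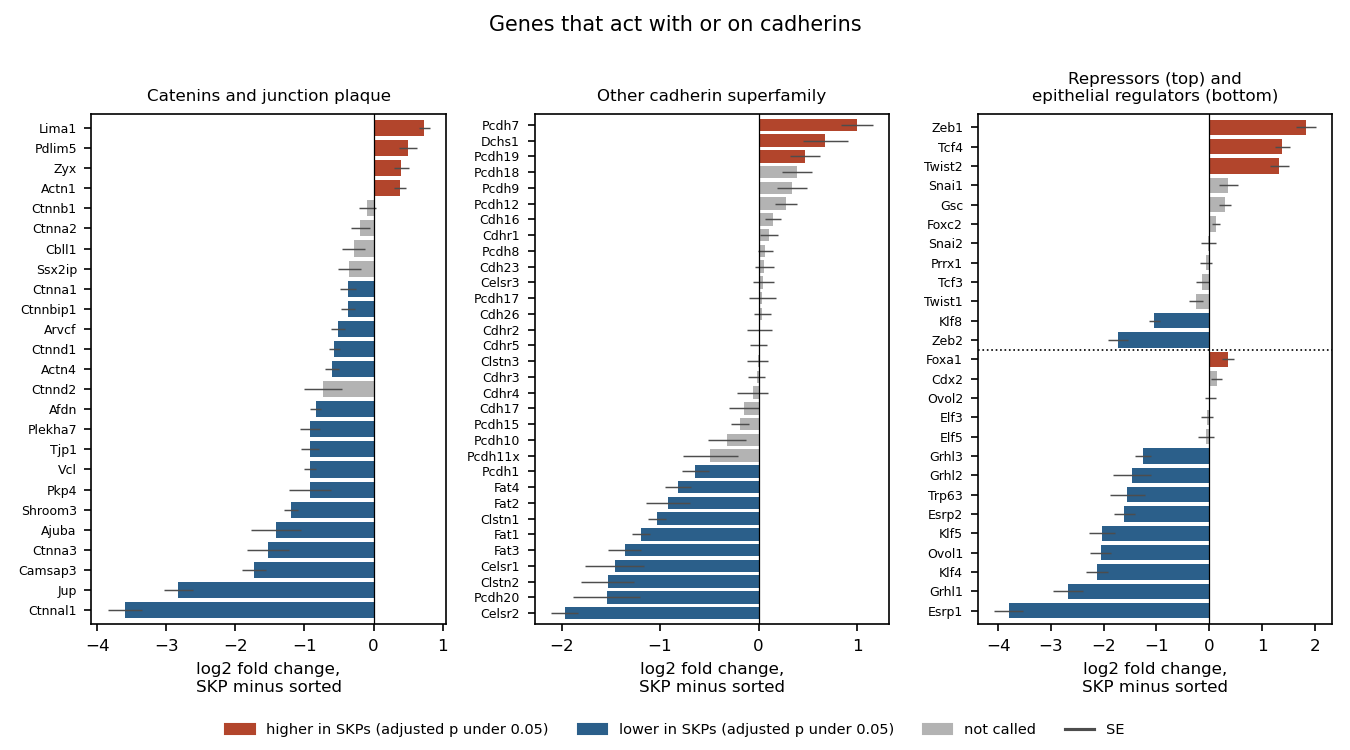
Log2 fold change, SKP minus sorted, of catenins and plaque genes, of other cadherin superfamily genes, and of Cdh1 repressors and epithelial regulators, with SE bars. Red bars are higher and blue bars lower in SKPs at an adjusted p under 0.05, and grey bars were not called. In the plaque panel 16 of 25 bars are blue, and Zeb1 and Zeb2 stand at opposite ends of the repressors.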

How the data were processed

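Levels came from Affymetrix Mouse Gene 1.0 ST arrays, 1 per preparation. The deposited log2 values are RMA summaries per probe set, and RMA, Affymetrix Expression Console and limma are named without versions in the submitters' processing notes. RMA adjusts background, equalises array distributions and summarises probes, so levels are relative to the array. Of 35556 probe sets 21789 carried 1 gene symbol, and the brightest was kept for each of 19938 genes. Cdh11 also has 3 probe sets shared with other symbols, which were not used. Probes differ in brightness, so levels of different genes were not tested against each other. Olfactory receptor genes served only as a rough guide to low signal. Detection p-values were not used here, and the number of arrays limits the precision.

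SKP minus sorted was tested with limma 3.58.1 in R 4.3.3 (lmFit and eBayes, two-sided, Benjamini-Hochberg over all genes) and tested on simulated data. The simulated noise was independent between genes and arrays, so that check does not cover sorted arrays that stand apart. Tables and figures used Python 3.11.15 and matplotlib 3.10.9. The design reports independent preparations. The members, the 18 gene lists, the tests and the alternatives were chosen with earlier results of these data known, so no list test was made. By rule the text names all members, Sox2 and Cd34, the 3 largest called changes per direction in each list of partners and regulators, the leading markers of each cell type list, and the 2 nearest profiles per called member. Other marker genes named were chosen after their values were seen. Lists of hair matrix (11 of 16 lower, 0 higher), pericyte and smooth muscle (8 of 12 lower, 1, Pdgfrb, higher) and skeletal muscle genes (5 of 12 higher, namely Acta1, Myh8, Tnnt3, Myog and Tnni2, and 0 lower) were also counted. Tnni2 lost its call without SKP replicate 3 or 6 or sorted replicate 2, 16 or 17 (limma adjusted p up to 0.116), and over 19 alternatives 1 (with a 2-fold limit) to 9 (with array weights) were higher and 0 to 1 lower. At an unadjusted p under 0.05 the keratinocyte, hair matrix and other type I and II cadherin lists also had 0 higher, and the skeletal muscle and myeloid lists 0 lower. The genome build of the probe annotation is not given in the sources used here.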

Additional observations from a re-analysis of the deposited data

Results flagged for a closer look

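In the group of 5 sorted arrays, 3 cadherins had a value on replicate 20 that stood apart from the others by Dixon's criterion. Cdh1 was at 11.31 there, 1.56 above the next array, a gap of 0.755 of the group's range. Cdh3 was at 10.38, 1.83 above the next array, a gap of 0.852 of the range. Cdh4 was at 7.24, but its whole range in the sorted cells was 0.27. Chance alone marks about 1 in 20 groups, and 20 groups were examined. The keratinocyte list mean was also highest on that array, at 10.77, and its part in these values was not tested.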

How the results depend on the processing

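Over 17 alternatives each, 0 of the 10 cadherins changed direction, and Cdh1 (-3.40 to -2.88), Cdh3 (-2.16 to -1.56), Cdh6 (-1.65 to -1.08) and Cdh19 (-3.21 to -2.88) stayed past the threshold in all. The alternatives were quantile normalization, median centring, removal of the lowest 33.3% of genes, both other treatments of probe sets, array weights, trended robust variances, each array left out, and sorted replicates 2 and 20 left out together. As each member had 1 probe set, neither probe set treatment could change its fold change or direction. Nor could the removal of the lowest genes or the trended robust variances, so these alternatives bear on the adjusted p only. Cdh2 lost its call in 3 and Cdh10 in 8, while Cdh5 gained one in 2 and Cdh11 in 3, array weights and the removal of sorted replicates 2 and 20 being among them for both. The number of members higher in SKPs was 2 with array weights, 0 at an adjusted p under 0.01, 0 with a 2-fold limit, and 0 to 1 with each array left out. The number lower was 4 to 6 throughout. The causes of these shifts were not tested. No paired analysis was possible because the groups share no replicate number. Signal limits Cdh10 and Cdh19, whose lower group was near the 95th percentile of olfactory receptor genes. Cdh5 was near that percentile on sorted replicates 16, 17 and 18, and Cdh1 in SKPs was only a little above it. Low signal likewise limits the folds of the list genes named as under that percentile.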
